A study of Mus musculus with 137 samples.

Results

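The comparison described here is of duodenal crypts from mice that drank 180 ppm hexavalent chromium (Cr(VI)) for 90 days with crypts from mice given tap water without added Cr(VI) over the same time. Its members were chosen by their labels alone, as the 5 crypt libraries at 180 ppm and 90 days (mice 483, 484, 485, 488 and 490) and the 5 crypt libraries at 0 ppm and 90 days (mice 3, 5, 6, 7 and 8), which makes 10 of the 71 mice of the study and 2 of its 28 groups of libraries. All mice were wildtype female B6C3F1 mice bred and dosed at Charles River, and all drank ad libitum, the exposed animals from water with sodium dichromate dihydrate. Their age was not given in the sources used here. RNA came from formalin-fixed, paraffin-embedded transverse sections of the duodenum. The villus region of a section was removed under microdissection and the remaining crypt region was scraped from the slide, so a crypt library also holds whatever lamina propria, muscle and attached tissue lay beside the crypts. Each library is 1 mouse. RNA was read by TempO-Seq, in which a pair of detector oligomers is ligated on its target transcript and the ligated probe is then amplified and counted. All libraries of the 28 groups were fitted together. Values are also given for crypts at 0.1, 1.4, 5, 20 and 60 ppm and 90 days (5 libraries each), crypts at 0 and 180 ppm and 7 days (5 libraries each) and villi at 0 ppm (4 libraries) and 180 ppm (5 libraries) and 90 days, all of them from mice of the same strain and sex that drank the same form of Cr(VI).

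Intestinal crypts hold the stem cells, the dividing progenitors and the Paneth cells of the small intestine. Cells that leave the crypt stop dividing, move up the villus and switch on the genes of absorption and digestion, while T cells that live between the epithelial cells patrol the layer. Cr(VI) is a soluble oxidized form of chromium that is reduced inside cells, and long exposure of mice through drinking water is known for tumors of the proximal small intestine.

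Levels are given in CPM, the count of a probe per 1000000 counts of its library after scaling with trimmed mean of M-values (TMM) factors. Where values of single libraries are listed, control mice come in the order 3, 5, 6, 7 and 8 and exposed mice in the order 483, 484, 485, 488 and 490. A value written with ± outside parentheses is a mean with its SD over the libraries of a group (n = 5 unless stated), with the control group before the exposed group where 2 means stand side by side, and a log2 fold change is followed by its standard error (SE). The SE was worked back from the test, as the absolute log2 fold change over the square root of the F statistic. It is approximate, above all for genes with few counts. Adjusted p values are from the edgeR quasi-likelihood test with Benjamini-Hochberg adjustment over all 26365 probes tested, and a gene was called, and is said to have risen or fallen, at an adjusted p under 0.1.

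Total counts ran from 2717447 to 5136000 in control crypts and from 4457691 to 5667584 in exposed crypts, and 15603 to 20705 and 17109 to 21666 probes were detected. The mean totals of 4218731 and 5022971 were not shown to differ (exact permutation test, two-sided p = 0.238, adjusted over 4 quantities p = 0.339). Control library 5 carried 157318 CPM of 13 pancreatic acinar markers together and exposed libraries 484 and 485 had the lowest sums of 14 villus enterocyte markers, 16382 and 13615 CPM, against 25046 to 49947 CPM in controls and 32856 to 37885 CPM in the other 3 exposed libraries. Counts called without both exposed libraries are given with the lists below. Without control library 5 the count of no list moved by more than 2 genes. Smooth muscle and fibroblast genes that fell went from 2 to 0 and cytochrome P450 genes that fell from 9 to 7. Among genes that rose, S100 genes went from 6 to 4, proteasome subunits from 14 to 12, translation factors from 16 to 18 and nutrient transporters from 1 to 3. The crypt label was checked against markers in control mice. The summed level of 12 crypt stem cell markers was 641 to 959.7 CPM in crypts against 88.5 to 535 CPM in villi (4 libraries), that of 10 Paneth cell markers 8559 to 21679 against 747 to 3775 CPM, and that of the villus enterocyte markers 25046 to 49947 against 61567 to 85852 CPM. The 3 pairs of ranges did not overlap. Villus genes were not absent from crypt libraries, and their level there is given beside the absorptive genes.

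In crypts at 180 ppm, 1489 of 19020 genes tested had at least 1 probe that passed (7.83%), 890 of them higher and 600 lower, 1 gene having probes in both directions. Counted by 1 representative probe a gene, 1343 genes were called (7.06%), of which 825 rose (4.34%) and 518 fell (2.72%). The genes that fell moved further, with a median log2 fold change of -1.47 against 1.02 for those that rose. Of the 203 called genes that changed by at least 4-fold, 136 fell and 67 rose. Exposed and control libraries did not overlap in CPM for 1324 genes (6.96%), 782 higher (4.11%) and 542 lower (2.85%). The share of called genes that were higher was 59.8% with TMM scaling and 45.4% with DESeq2 size factors, which moved the median of all genes by -0.10 on the log2 scale, so the balance of rises and falls depends on the scaling. Leaving out both exposed libraries with low villus markers left 823 genes, 552 higher and 271 lower, 788 of them called before as well. Probes of 1 gene often differed. Of 5462 genes with more than 1 tested probe 759 had a called probe, and in 127 all tested probes were called in 1 direction. Among the called genes named below 94 had several probes, of which 38 had all of them called in 1 direction and 15 had another probe of opposite sign, 0 of these called. The 15 were Aen, Aldoa, Ccne1, Eif6, H2-DMa, H2-T23, Hspa8, Hsph1, Ldha, Mcm10, Pcna, Psmb10, Psmb9, Tdg and Trp53. List counts below are by the representative probe, the one with the highest total count. Where no share stands beside a count, it is to be read against the 4.34% of all genes that rose and the 2.72% that fell. Some list members passed by another probe alone. Beside those named below, Actg1, Ddx10, Farsb, Hsp90ab1, Hsp90b1, Iars, Kars and Snrpb were higher in this way. Ces2a, Cyp3a11, Cyp4f16, Enpep, Nr1i3 and Ugt1a6a were lower.

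Among the 12 genes with the smallest p that rose without overlap of the groups were S100a14, Mboat1, S100a6, Gcnt3, Plek2, Mcpt1, Msmo1, Bhlhe40, Idi1, Hspa4 and Ddx21. S100a14, which codes for a calcium-binding protein of the S100 family (chr3:90526856-90528837, plus strand, GRCm38), measured 13.6, 9.005, 2.22, 10.8 and 0 CPM in control crypts. In exposed crypts it measured 89.7, 152, 120.4, 110.0 and 86.5 CPM, so every exposed library lay above every control library (log2 fold change 3.84 ± 0.47, adjusted p = 1.46e-09). Mboat1 (chr13:30136489-30246717, plus strand), a membrane-bound acyltransferase of phospholipid remodeling, was at 5.82, 3.27, 0, 3.47 and 0 CPM in controls and at 48.8, 131, 99.9, 48.2 and 49.3 CPM in exposed crypts. Its log2 fold change of 4.63 ± 0.59 was the highest of these 12 (adjusted p = 4.39e-09). Gcnt3 (chr9:70031496-70038088, minus strand) codes for an enzyme that branches the O-glycans of mucins. It stood at 17.7, 15.3, 18.7, 19.5 and 33.1 CPM in controls and at 102, 120.1, 96.5, 77.0 and 123 CPM in exposed crypts, with no overlap (log2 fold change 2.31 ± 0.32, adjusted p = 1.11e-07). Plek2, a pleckstrin that acts on the actin cytoskeleton, measured 25.7, 43.9, 19.6, 47.2 and 22.9 CPM without and 121, 213, 118, 156 and 137.2 CPM with Cr(VI), the lowest exposed library being above the highest control (log2 fold change 2.20 ± 0.31, adjusted p = 1.18e-07). Bhlhe40, a transcriptional repressor, went from 91.7 ± 15.7 to 292 ± 54.3 CPM and both of its probes were called (log2 fold change 1.66 ± 0.26, adjusted p = 1.33e-06). Ddx21, a helicase of the nucleolus, went from 37.5 ± 13.95 to 163 ± 59.1 CPM (log2 fold change 2.11 ± 0.35, adjusted p = 1.05e-05).

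The 12 leading genes that fell were Pck1, Tymp, Btnl6, Btnl2, Slc6a20a, Gzma, Irf1, Xdh, Mgam, Gm8909, Selenop and Proz. Pck1 (chr2:173153048-173159273, plus strand), the cytosolic phosphoenolpyruvate carboxykinase that commits carbon to glucose synthesis, had the smallest p of all genes. Control crypts held 265, 393, 264, 119.8 and 296 CPM of Pck1 and exposed crypts 8.68, 3.21, 4.49, 11.4 and 10.6 CPM. The highest exposed value lay below the lowest control value, and the log2 fold change was -5.02 ± 0.57 (adjusted p = 1.83e-10). Tymp (chr15:89371931-89377039, minus strand), thymidine phosphorylase, measured 62.8, 199, 154, 170.1 and 239 CPM in controls against 33.9, 5.96, 10.4, 34.5 and 11.6 CPM in exposed crypts (log2 fold change -3.06 ± 0.39, adjusted p = 8.26e-09). Selenop, the secreted selenium carrier, was at 293, 989, 479.8, 581 and 1024 CPM and 101, 52.7, 42.9, 159 and 82.6 CPM in the same order of groups. Its spread among controls was wide, but no exposed library reached the lowest control (log2 fold change -2.93 ± 0.42, adjusted p = 1.87e-07). Xdh, xanthine dehydrogenase of purine breakdown, went from 133 ± 39.7 to 28.8 ± 13.8 CPM (log2 fold change -2.19 ± 0.31, adjusted p = 1.24e-07), and Proz, a vitamin K-dependent plasma protein, from 39.3 ± 10.8 to 5.75 ± 4.73 CPM (log2 fold change -2.67 ± 0.39, adjusted p = 2.85e-07). Gm8909 is a predicted gene of the class I family, whose members are alike enough in sequence that its counts are uncertain, and it went from 211 ± 65.1 to 31.9 ± 19.4 CPM (log2 fold change -2.70 ± 0.39, adjusted p = 1.87e-07).

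**Figure D1:**
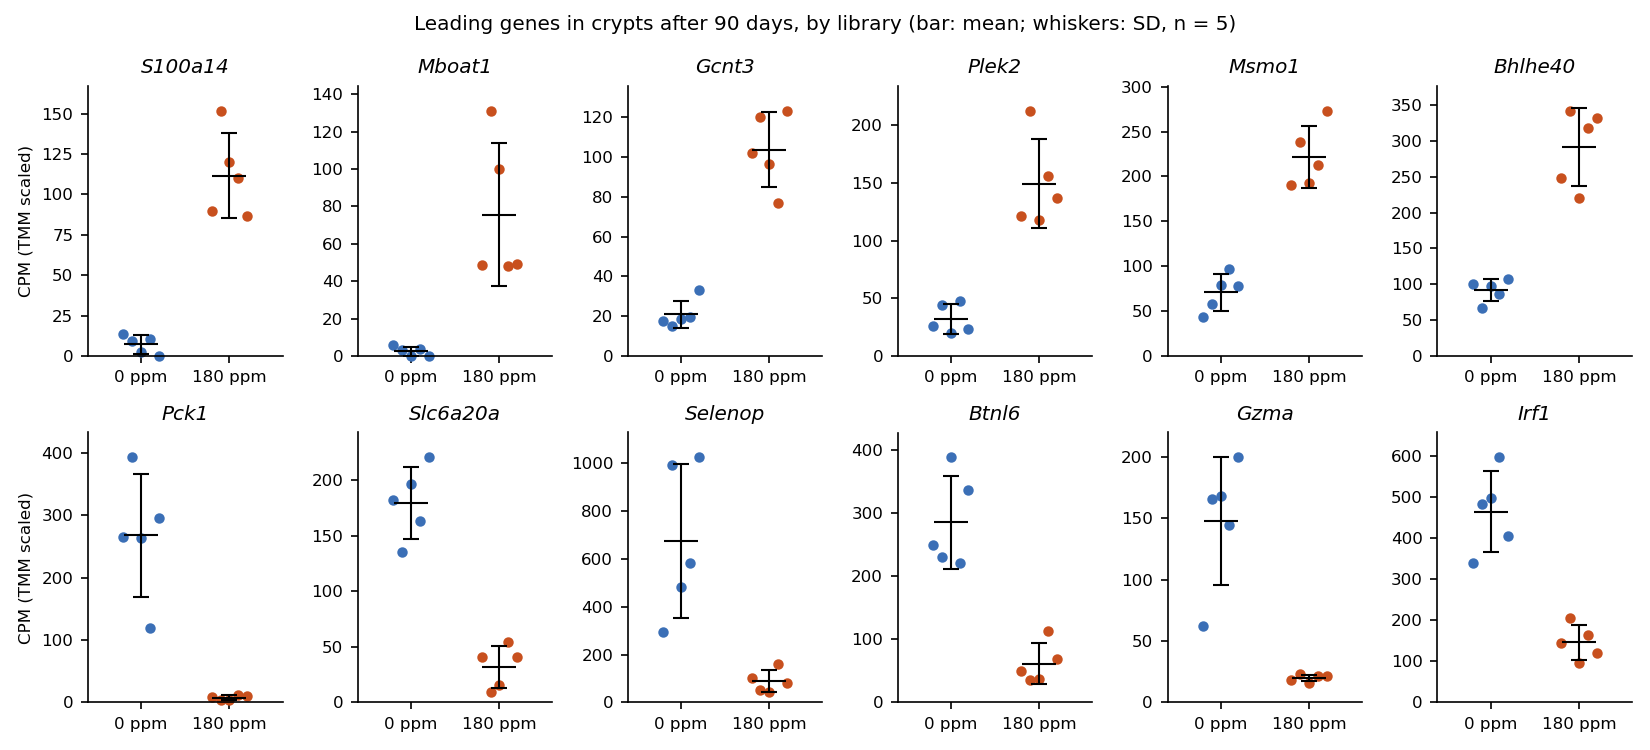
CPM of leading genes in each crypt library at 90 days, control mice beside mice at 180 ppm Cr(VI), with 1 point a mouse, a bar at the group mean and an error bar of 1 SD. In each panel every point of 1 group lies on the far side of every point of the other, and the panels with the widest ratio of means are those of Mboat1, which rose, and Pck1, which fell.

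Many genes of intraepithelial T cells, of the butyrophilin-like surface proteins that epithelial cells show to gamma delta T cells, and of antigen presentation fell in exposed crypts. Of 12 markers of T cells and intraepithelial lymphocytes tested, 7 fell, 0 rose and 5 did not pass, against 2.72% of all genes that fell. Their median log2 fold change was -2.29 against 0 over all genes. Gzma, the granzyme of cytotoxic lymphocytes, was at 61.8, 165, 168, 144 and 199.8 CPM in controls and at 17.97, 22.9, 15.99, 21.2 and 21.4 CPM in exposed crypts. All 5 exposed libraries lay within a narrow band under the lowest control (log2 fold change -2.86 ± 0.40, adjusted p = 1.11e-07). Ccl5, a chemokine that activated T cells release, measured 33.5, 30.6, 42.8, 25.8 and 34.7 CPM against 1.86, 3.21, 5.21, 2.33 and 2.70 CPM (log2 fold change -3.22 ± 0.52, adjusted p = 3.50e-06). Gzmb, another granzyme, measured 17.2, 8.19, 20.8, 13.5 and 14.7 CPM against 1.24, 1.38, 0, 2.33 and 1.35 CPM (log2 fold change -3.14 ± 0.58, adjusted p = 5.54e-05). Nkg7 (cytotoxic granules), Cd3e and Cd3g (chains of the T cell receptor complex) and Cd7 (a T cell surface protein) also fell, with log2 fold changes of -2.58, -2.14, -2.43 and -2.93. Cd3d measured 15.6 ± 7.31 and 6.58 ± 3.82 CPM and did not pass (adjusted p = 0.339), though another probe of it did (log2 fold change -2.14, adjusted p = 0.0992). Itgae, the integrin that holds these cells in the epithelium, measured 30.4 ± 11.4 and 19.6 ± 4.89 CPM (adjusted p = 0.381), and again another probe passed (log2 fold change -1.80, adjusted p = 0.0112). Cd8a, Cd8b1 and Trbc2 were each under 2 CPM on average in both groups and could not be read at this depth. The markers summed to 195 to 362 CPM in controls and to 40.6 to 69.5 CPM in exposed crypts, with no overlap. In bulk libraries fewer cells of a type and less RNA per cell cannot be told apart. Without both exposed libraries with low villus markers, 5 of the 12 fell.

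Butyrophilin-like genes form a cluster on mouse chromosome 17, and their products shape the intraepithelial T cell pool of the gut. This family was looked up after its leading members had been seen. Of 8 members tested, Btnl1, Btnl2, Btnl4 and Btnl6 fell, 0 rose and 4 did not pass, against 2.72% of all genes that fell. The 4 that did not pass, Btnl9, Btnl10, Btn1a1 and Btn2a2, could not be read at this depth. They had 12, 16, 0 and 0 counts over the control libraries together and 13, 4, 5 and 16 over the exposed ones. Btnl6 (chr17:34507804-34517352, minus strand) measured 249.8, 229, 388, 221 and 336 CPM in controls and 49.8, 35.3, 37.6, 114 and 69.2 CPM in exposed crypts. The groups did not overlap (log2 fold change -2.21 ± 0.28, adjusted p = 8.89e-09). Btnl2 (chr17:34354822-34369495, plus strand) measured 131, 235, 339.5, 350.0 and 312 CPM against 100.2, 57.3, 37.4, 107 and 84.0 CPM (log2 fold change -1.82 ± 0.24, adjusted p = 4.01e-08). Btnl1 (chr17:34377132-34386028, plus strand), the partner of Btnl6 on the enterocyte surface, went from 32.3 ± 9.77 to 12.5 ± 3.37 CPM (log2 fold change -1.33 ± 0.36, adjusted p = 0.0121), and Btnl4 (chr17:34466562-34477318, minus strand) from 663 ± 138 to 308 ± 58.0 CPM (log2 fold change -1.10 ± 0.21, adjusted p = 1.86e-04). Members of this family resemble each other, so single values are less certain than those of unrelated genes. Leaving out mice 484 and 485 left 3 members that fell, Btnl1 not being called.

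Of 18 genes of antigen presentation tested, 13 fell, 0 rose and 5 did not pass, with a median log2 fold change of -1.36. Class I molecules show peptides made in the cell to CD8 T cells, and class II molecules, made by antigen-presenting cells and by intestinal epithelium under interferon gamma, show peptides taken up from outside. On the class I side H2-T23, a nonclassical class I chain, measured 432, 692, 578, 614 and 770.4 CPM in controls and 214, 179.9, 92.2, 285 and 202 CPM in exposed crypts, without overlap (log2 fold change -1.66 ± 0.25, adjusted p = 8.53e-07). H2-D1 and H2-K1, the classical chains, fell by 1.62 and 0.74 on the log2 scale, and B2m, their shared light chain, fell by 0.83 (adjusted p = 0.0764). Sequences of the H2 class I genes are near copies of each other, and their counts are uncertain for that reason. The peptide transporter genes Tap1 and Tap2 and the loading factor Tapbp fell as well, with log2 fold changes of -2.14, -2.09 and -1.93. On the class II side Cd74, the invariant chain, measured 259, 714, 756, 667 and 618 CPM against 247, 207, 157, 230.2 and 272 CPM, and exposed mouse 490 lay above control mouse 3 (log2 fold change -1.44 ± 0.37, adjusted p = 0.00885). H2-DMa, H2-DMb1 and H2-Ab1 also fell (-1.96, -2.22 and -1.29), as did Ctss, the protease that trims the invariant chain (-0.97). H2-Aa measured 364 ± 133 and 177 ± 38.6 CPM and did not pass by its representative probe (adjusted p = 0.142) but did by another (log2 fold change -1.65, adjusted p = 0.0101). Ciita measured 8.35 ± 3.99 and 3.66 ± 4.61 CPM (adjusted p = 0.548) and Nlrc5 had 0 counts in all 10 libraries. When mice 484 and 485, those with low villus markers, were left out, 9 of the 13 fell, and B2m, H2-K1, Cd74 and H2-Ab1 were not called. Irf1 (chr11:53770014-53778374, plus strand), an interferon-induced transcription factor of these genes, measured 339, 484, 499, 598 and 406 CPM in controls and 145, 206, 95.8, 165 and 119 CPM in exposed crypts. All 3 of its probes were called, and the groups did not overlap (log2 fold change -1.67 ± 0.24, adjusted p = 1.22e-07). Of 36 genes of the interferon response 3 fell (Irf1, Igtp and Ifi27l2b), Oasl1 rose and 32 did not pass (11.1% called against 7.06% of all genes). The median log2 fold change was -0.33 with 8 positive. DESeq2 called 6 lower, and with mice 484 and 485 left out Irf1 alone fell.

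Among 39 proteasome genes tested, 14 rose and 3 fell. The proteasome degrades tagged proteins, and in immune and interferon-treated cells its catalytic subunits are exchanged for an inducible set that favors peptides for class I. The 3 that fell, Psmb9, Psmb10 and Psme1, belong to the inducible set or to its activator, and Psmb9 is also counted among the 18 genes of antigen presentation. Psmb9 and Psmb10 each had another probe of opposite sign that was not called. Psmb9 measured 107, 103, 158, 174 and 107 CPM in controls and 27.9, 34.2, 27.3, 32.4 and 56.4 CPM in exposed crypts (log2 fold change -1.85 ± 0.28, adjusted p = 5.32e-07). Psmb10 measured 82.0, 73.7, 96.4, 108 and 102 CPM against 34.1, 43.3, 30.7, 48.2 and 43.5 CPM (log2 fold change -1.20 ± 0.23, adjusted p = 1.76e-04), and Psme1 went from 31.6 ± 18.1 to 12.5 ± 4.94 CPM (log2 fold change -1.32 ± 0.35, adjusted p = 0.0118). Psmb8, the other inducible catalytic subunit, was at 1.25 ± 1.24 CPM in controls and could not be read, and Psme2 measured 110.1 ± 39.2 and 72.1 ± 12.2 CPM (adjusted p = 0.119). The 14 that rose were constitutive subunits of the core or of the regulatory cap. Psmd6, of the cap, measured 94.6, 121, 124, 149.6 and 136.9 CPM in controls and 340.0, 314, 206, 239 and 329 CPM in exposed crypts (log2 fold change 1.18 ± 0.25, adjusted p = 5.42e-04). Psmc3, Psmc1 and Psmc4, ATPases of the cap, rose by 0.92, 0.83 and 0.91 on the log2 scale, and Psma3 and Psma6, of the core, by 1.06 and 0.93. The constitutive catalytic subunits Psmb5, Psmb6 and Psmb7, which the inducible ones replace, did not pass, at log2 fold changes of 0.10, -0.03 and 0.94. Psmb6 was measured at 284 ± 60.5 and 278 ± 83.4 CPM. With mice 484 and 485, those with low villus markers, left out, 8 constitutive subunits and the 3 that fell were called.

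**Figure D2:**
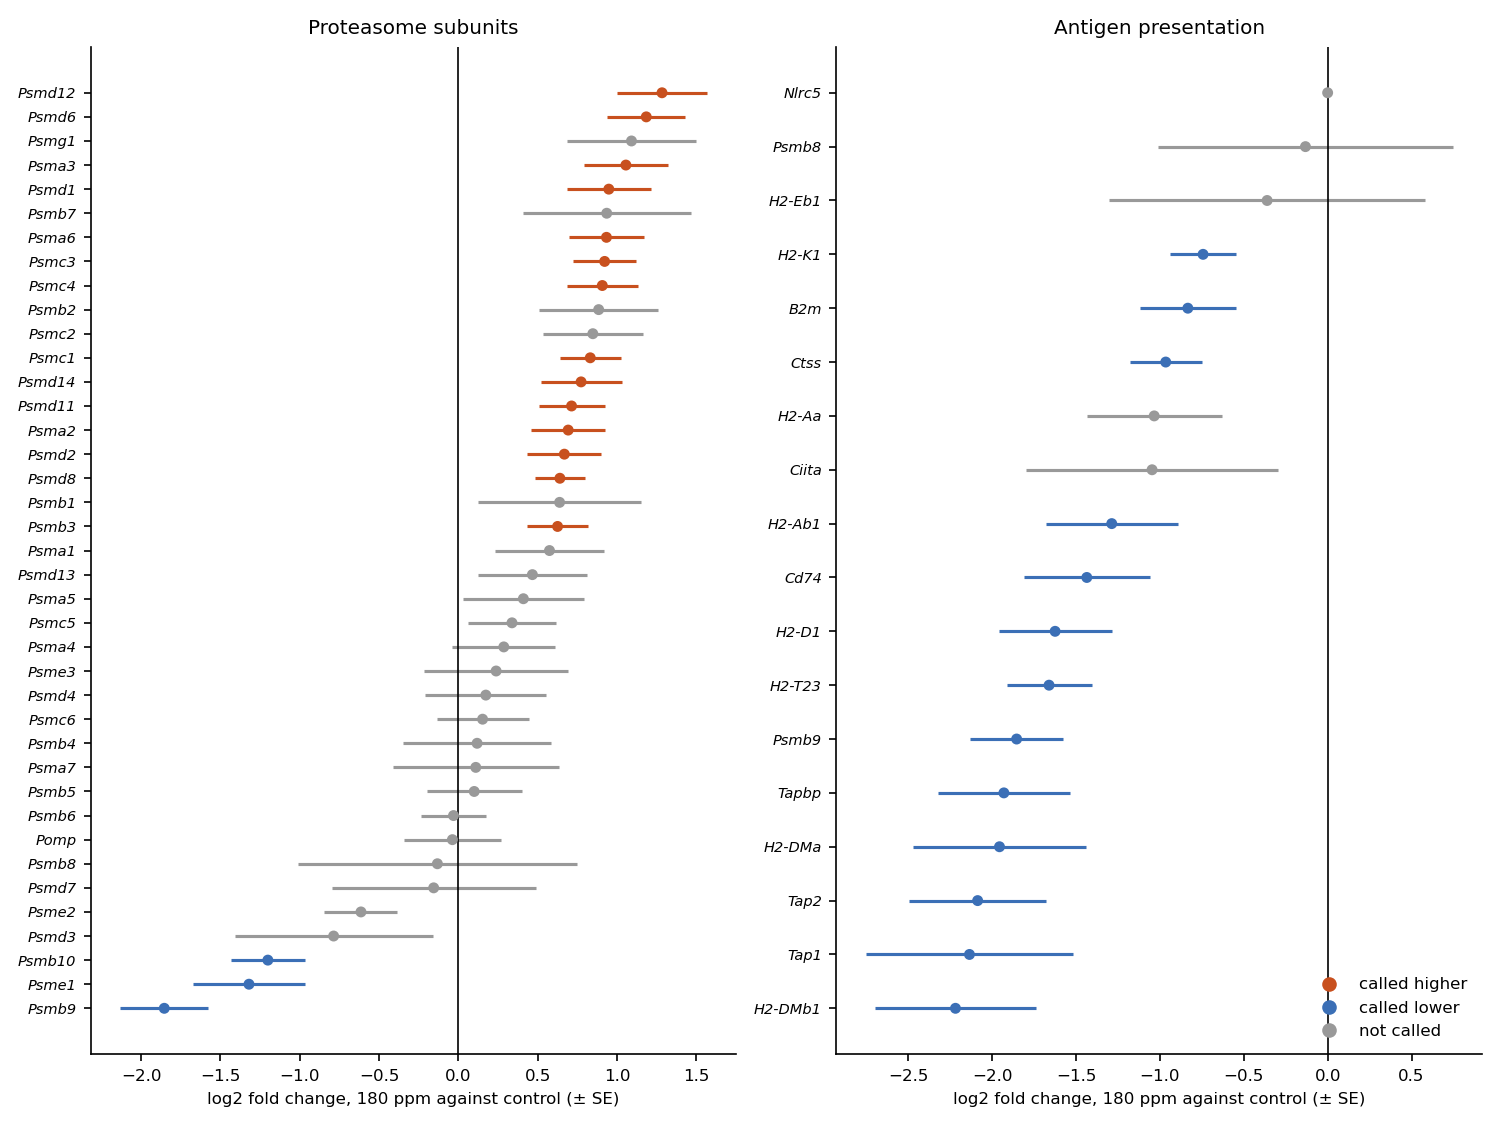
Log2 fold change, with 1 SE either way, of proteasome subunits and antigen presentation genes in exposed against control crypts at 90 days, red where the gene was called higher, blue where it was called lower and gray where it was not called. The called constitutive subunits lie right of 0, while Psmb9, Psmb10, Psme1 and every called gene of antigen presentation lie left of it.

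Reference promoters of the antigen presentation genes were read from RefSeq (GRCm38.p6), because its members fell together. Of the 13 called genes 10 had a promoter in the table used, and 9 of these (11 of 13 of the whole list) held the pentamer CCAAT (on either strand, where it reads ATTGG) within the 250 bases before the start, against 39.5% of 14196 genes. An interferon element, 2 copies of GAAA with 2 bases between them, was found in 3 of the 10, against 3.49% of all genes. An E2F site, TTTGGCGC, was found in 2 of the 10, against 0.690% of all genes. Of 15 motifs searched in 6 lists, each of the other 12 was found in 0 to 2 of the 10, and a match is a string of letters, not a shown binding site. As examples with a CCAAT pentamer near the start the 250 bases before the start of Psmb9 and H2-T23 are shown, 5′ to 3′ on the gene's strand, with CCAAT or ATTGG in capitals. In Psmb9 (chr17:34187331-34187580, minus strand) the pentamer begins 8 bases before the start, and in H2-T23 (chr17:36032702-36032951, minus strand) 52 bases before it.
Psmb9: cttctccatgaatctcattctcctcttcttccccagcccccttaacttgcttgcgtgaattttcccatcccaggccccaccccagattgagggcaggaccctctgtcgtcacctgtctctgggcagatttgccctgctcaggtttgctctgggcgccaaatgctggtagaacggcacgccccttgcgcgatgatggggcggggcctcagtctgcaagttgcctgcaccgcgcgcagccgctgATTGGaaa
H2-T23: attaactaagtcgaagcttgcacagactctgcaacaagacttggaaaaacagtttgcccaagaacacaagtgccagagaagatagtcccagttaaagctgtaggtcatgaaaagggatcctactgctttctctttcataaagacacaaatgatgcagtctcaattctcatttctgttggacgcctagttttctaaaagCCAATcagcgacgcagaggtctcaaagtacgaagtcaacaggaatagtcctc

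Some genes of mucosal mast cells rose. These mast cells sit in and under the gut epithelium and store proteases in granules. This list was made after Mcpt1 had been seen among the leading genes. Of 17 genes tested 5 rose, 0 fell and 12 did not pass, against 4.34% of all genes that rose. Mcpt1 (chr14:56017971-56020384, plus strand), a chymase of mucosal mast cells, measured 6.79, 20.2, 1.11, 12.9 and 18.3 CPM in controls and 61.6, 328, 385, 117 and 196 CPM in exposed crypts. Exposed libraries ranged widely, and the lowest was still above the highest control (log2 fold change 4.20 ± 0.63, adjusted p = 4.34e-07). Mcpt2, a neighboring chymase gene (chr14:56042041-56044642, plus strand), measured 8.00, 0, 0, 0.770 and 0.328 CPM against 14.9, 64.6, 27.7, 19.3 and 39.9 CPM (log2 fold change 3.85 ± 0.72, adjusted p = 7.05e-05). Il1rl1, the receptor of interleukin 33, measured 0, 2.46, 0, 0 and 0 CPM against 21.3, 28.9, 13.7, 32.6 and 12.7 CPM (log2 fold change 4.52 ± 0.78, adjusted p = 1.38e-05). Cpa3, the mast cell carboxypeptidase, measured 0, 2.73, 0, 1.35 and 0 CPM against 4.34, 19.0, 12.9, 7.19 and 12.1 CPM (log2 fold change 3.12 ± 0.76, adjusted p = 0.00379). Fcer1a, the alpha chain of the high-affinity IgE receptor, was at 0 counts in all 5 control libraries and between 0.826 and 7.55 CPM in exposed crypts, which is at least 30.5-fold higher taking 3 counts over the control group as the floor (edgeR adjusted p = 0.0144). Kit measured 7.46 ± 6.68 and 5.75 ± 3.40 CPM (adjusted p = 0.809) and Mcpt4, of connective tissue mast cells, 1.70 ± 2.24 and 2.32 ± 2.22 CPM (adjusted p = 0.864), and neither passed. Mast cell protease genes are similar in sequence, so the split of counts between Mcpt1 and Mcpt2 is uncertain. Without both exposed libraries with low villus markers 4 were called, and with DESeq2 3. Of 5 alarmins and type 2 cytokines tested none passed with edgeR as reported or with DESeq2. With the legacy form of the edgeR fit 1 was called higher, and under the other settings tried up to 2 were. Il33, the ligand of Il1rl1, measured 5.20 ± 3.18 and 15.0 ± 5.25 CPM (unadjusted p = 0.0113, adjusted p = 0.141), and Tslp (unadjusted p = 0.0109, adjusted p = 0.139) had 0 counts in every control library. These are the 2 of the 5 at an unadjusted p under 0.05.

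Other resident cells gave a different picture. Of 14 enteroendocrine genes 4 fell (28.6% against 2.72% of all genes), 0 rose and 10 did not pass. Gip, the hormone of K cells, measured 99.2, 109, 156, 117 and 104 CPM in controls and 54.9, 23.1, 21.7, 38.1 and 38.3 CPM in exposed crypts (log2 fold change -1.72 ± 0.36, adjusted p = 6.38e-04). Ghrl, ghrelin, measured 48.3, 88.4, 36.5, 84.9 and 28.2 CPM against 20.9, 12.6, 9.34, 11 and 11.9 CPM (log2 fold change -2.09 ± 0.44, adjusted p = 7.66e-04). Sst, somatostatin, measured 113, 125, 116, 94.2 and 140.2 CPM against 43.2, 44.0, 31.4, 49.3 and 55.1 CPM (log2 fold change -1.39 ± 0.35, adjusted p = 0.00597), and Chga, the granule protein common to these cells, went from 97.5 ± 26.7 to 50.9 ± 26.5 CPM (log2 fold change -0.93 ± 0.30, adjusted p = 0.0466). In none of these 3 hormones did the groups overlap, and the 3 were called with mice 484 and 485 left out, when Chga was not. The transcription factors Neurog3 and Neurod1, which set the lineage up, measured 0.928 ± 1.44 and 0.986 ± 1.77 CPM and 17.9 ± 14.5 and 19.7 ± 7.72 CPM and did not pass. The list summed to 469 to 645 CPM in controls and to 177 to 340.0 CPM in exposed crypts. Of 8 goblet cell genes 3 rose, Spdef (a goblet cell transcription factor, log2 fold change 1.29 ± 0.34, adjusted p = 0.0101), Spink4 (1.03) and Fcgbp (0.82), while the mucin Muc2 measured 113 ± 20.4 and 169 ± 60.7 CPM (adjusted p = 0.255) and the sums of the groups overlapped (2340.4 to 8229.5 and 2802 to 5558 CPM). No crypt stem cell gene of 12, Paneth cell gene of 10, tuft cell gene of 11, Brunner gland gene of 4, endothelial gene of 9, B and plasma cell gene of 9, macrophage gene of 10 or neutrophil and eosinophil gene of 8 passed in edgeR by its representative probe. The tuft cell gene Trpm5, a cation channel of taste signaling, had another probe that was lower (log2 fold change -2.31, adjusted p = 0.0246), the 1 such case in these lists. At an unadjusted p under 0.05 there were 0, 2, 1, 0, 2, 1, 0 and 1 of these, all lower, and DESeq2 called 1 B and plasma cell gene in each direction. Stem cell markers summed to 641 to 959.7 CPM in controls and 835 to 1098 CPM in exposed crypts, and Paneth markers to 8559 to 21679 and 8254 to 19044 CPM. Of 13 smooth muscle and fibroblast genes 2 fell, and 0 did without control library 5 or without both exposed libraries with low villus markers, where 1 goblet cell gene rose. Neither of the 2 red blood cell genes tested passed, and no pancreatic acinar gene of 13 passed (0 at an unadjusted p under 0.05 in both lists, and 0 with DESeq2), at sums of 10.9 to 157318 CPM in controls and 55.0 to 24404 CPM in exposed crypts.

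**Figure D3:**
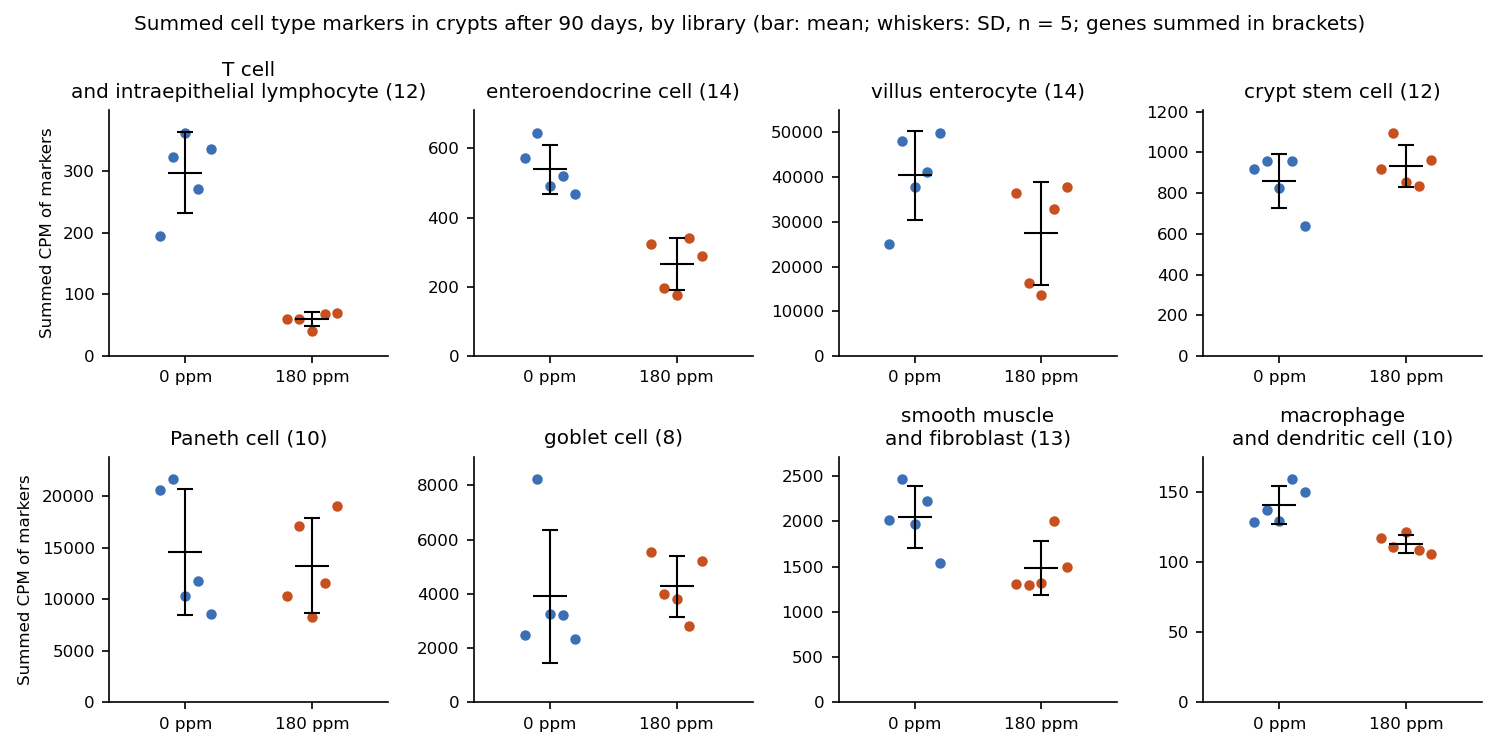
Summed CPM of the marker genes of a cell type in each crypt library at 90 days, 1 point a mouse, for control mice and mice at 180 ppm Cr(VI), with a bar at the mean and an error bar of 1 SD, on linear axes that start at 0. The groups do not overlap for T cell and intraepithelial lymphocyte markers, for enteroendocrine markers or for macrophage and dendritic cell markers, and they overlap in the other 5 panels.

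Many genes of digestion, absorption and nutrient metabolism fell. These genes are switched on as cells leave the crypt. The summed villus enterocyte markers were 25046 to 49947 CPM in controls and 13615 to 37885 CPM in exposed crypts, and 5 of those 14 markers fell, or 3 with mice 484 and 485 left out. The part that the amount of upper crypt or lower villus tissue on a slide had in the results of this section was not tested. Vil1, villin, and Alpi, alkaline phosphatase, are also high in villi, and neither passed, at log2 fold changes of -0.25 and -0.02, nor did Fabp2, the main fatty acid binding protein of enterocytes (-0.28).

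Of 20 brush border digestive enzymes 10 fell and 0 rose. Mgam, the maltase of the brush border (chr6:40628831-40769123, plus strand), measured 2165, 3661, 3113, 2908 and 4364 CPM in controls and 1229, 879, 730.3, 976 and 799.9 CPM in exposed crypts, without overlap (log2 fold change -1.81 ± 0.26, adjusted p = 1.44e-07). Ace, a carboxydipeptidase, measured 140.4, 182, 221, 106 and 127 CPM against 19.2, 12.6, 9.52, 22.8 and 26.2 CPM (log2 fold change -3.07 ± 0.45, adjusted p = 3.47e-07). Treh (trehalase), Mme and Anpep (peptidases), Ggt1 (glutathione breakdown), Dpp4 and Mep1b (peptidases) fell by log2 fold changes of -2.09, -2.06, -2.08, -1.33, -1.42 and -0.82. Lct, lactase, measured 18.4, 5.73, 12.97, 5.59 and 11.1 CPM in controls and had 0 counts in all exposed libraries, at least 91.3-fold lower with a floor of 3 counts over the group (edgeR adjusted p = 2.40e-04). Without both exposed libraries with low villus markers 6 of the 10 fell.

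Of 40 nutrient transporters 9 fell and 1 rose, against 2.72% and 4.34% of all genes. Slc6a20a, the imino acid transporter, measured 182, 135, 196, 164 and 221 CPM in controls and 40.7, 8.94, 15.6, 54.2 and 41.2 CPM in exposed crypts (log2 fold change -2.46 ± 0.34, adjusted p = 1.11e-07). Slc15a1, which takes up dipeptides, measured 74.7, 118, 67.3, 87.2 and 58.6 CPM against 15.5, 6.88, 7.73, 13.5 and 21.0 CPM (log2 fold change -2.60 ± 0.42, adjusted p = 4.29e-06). Slc5a1 (glucose), Slc2a5 (fructose), Slc6a19 (neutral amino acids), Slc28a1 (nucleosides), Slc9a3 (sodium and protons), Slc46a1 (folate and heme) and Slc26a6 (anions) fell by log2 fold changes of -1.32, -3.30, -1.41, -2.61, -2.54, -1.86 and -1.11. The transporter that rose was Slc16a1, a monocarboxylate carrier of lactate and butyrate, at 132, 183, 188, 219 and 158 CPM in controls and 382, 496, 318, 427 and 504 CPM in exposed crypts (log2 fold change 1.27 ± 0.25, adjusted p = 2.61e-04).

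Of 28 genes of fat absorption and chylomicron assembly 11 fell and 0 rose. Apoa1, a main apolipoprotein of chylomicrons and of high-density lipoprotein, measured 3026, 7802, 4872, 5114 and 7657 CPM in controls and 1813, 213, 259, 2817 and 2093 CPM in exposed crypts (log2 fold change -1.98 ± 0.38, adjusted p = 1.81e-04). Mice 484 and 485, those with low villus markers, had the lowest values. Apoa4, Apob, Apoc2 and Apoc3, other apolipoproteins, fell by 1.98, 1.68, 1.67 and 2.33 on the log2 scale, and the sterol efflux pumps Abcg5 and Abcg8 by 1.80 and 1.40. Mttp, which loads lipid on Apob, measured 3415 ± 532 and 2605 ± 779 CPM and did not pass (adjusted p = 0.481). Of 15 genes of gluconeogenesis and fructose use 7 fell, and beside Pck1 these were Gpt (-1.45), Fbp1 (-1.65), Khk (-1.13), G6pc (-1.79) and the regulators Mlxipl (-0.98) and Ppargc1a (-1.21). Pck2, the mitochondrial form of the enzyme, measured 162 ± 81.9 and 153 ± 35.4 CPM (adjusted p = 0.937). Of 39 genes of fatty acid oxidation 6 fell (15.4% against 2.72% of all genes) and 0 rose. Among the 6 was Pdk4, a kinase that holds back the use of glucose (log2 fold change -2.31 ± 0.65, adjusted p = 0.0179), while Ppara measured 23.9 ± 9.74 and 36.8 ± 10.8 CPM (adjusted p = 0.443).

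Of 34 cytochrome P450 genes 9 fell and 0 rose. Cyp2b10, a target of the xenobiotic receptor CAR, measured 217, 247, 379.7, 400.4 and 437 CPM in controls and 17.1, 5.73, 2.16, 70.9 and 38.3 CPM in exposed crypts, apart from every control (log2 fold change -3.62 ± 0.56, adjusted p = 8.98e-07). Cyp3a25 measured 213, 192, 242, 191 and 474 CPM against 32.8, 3.44, 1.26, 85.0 and 62.4 CPM (log2 fold change -2.81 ± 0.47, adjusted p = 9.91e-06). Here too mice 484 and 485 were lowest. Cyp4v3, Cyp2d22, Cyp3a13, Cyp2c68, Cyp4f14, Cyp2c66 and Cyp2j6 fell by log2 fold changes of -2.08, -2.08, -1.12, -1.32, -0.90, -1.142 and -1.52, and Cyp1a1, a target of the aryl hydrocarbon receptor, measured 9.34 ± 6.92 and 6.55 ± 6.59 CPM (adjusted p = 0.771). Of 35 conjugation and related enzymes 8 fell, led by Ephx2, soluble epoxide hydrolase (log2 fold change -1.99 ± 0.32, adjusted p = 3.38e-06), and Adh6a (-1.78). Cyp and Ugt genes have close copies, and their single values are uncertain for that reason. Of 35 nuclear receptors 2 fell (5.71% against 2.72% of all genes), among them Vdr, the vitamin D receptor (log2 fold change -1.05 ± 0.28, adjusted p = 0.0112). With both exposed libraries of low villus markers left out, 4 P450 genes, 2 conjugation genes, 7 transporters, 7 genes of fat absorption, 4 of gluconeogenesis, 1 nuclear receptor and 0 genes of fatty acid oxidation fell.

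**Figure D4:**
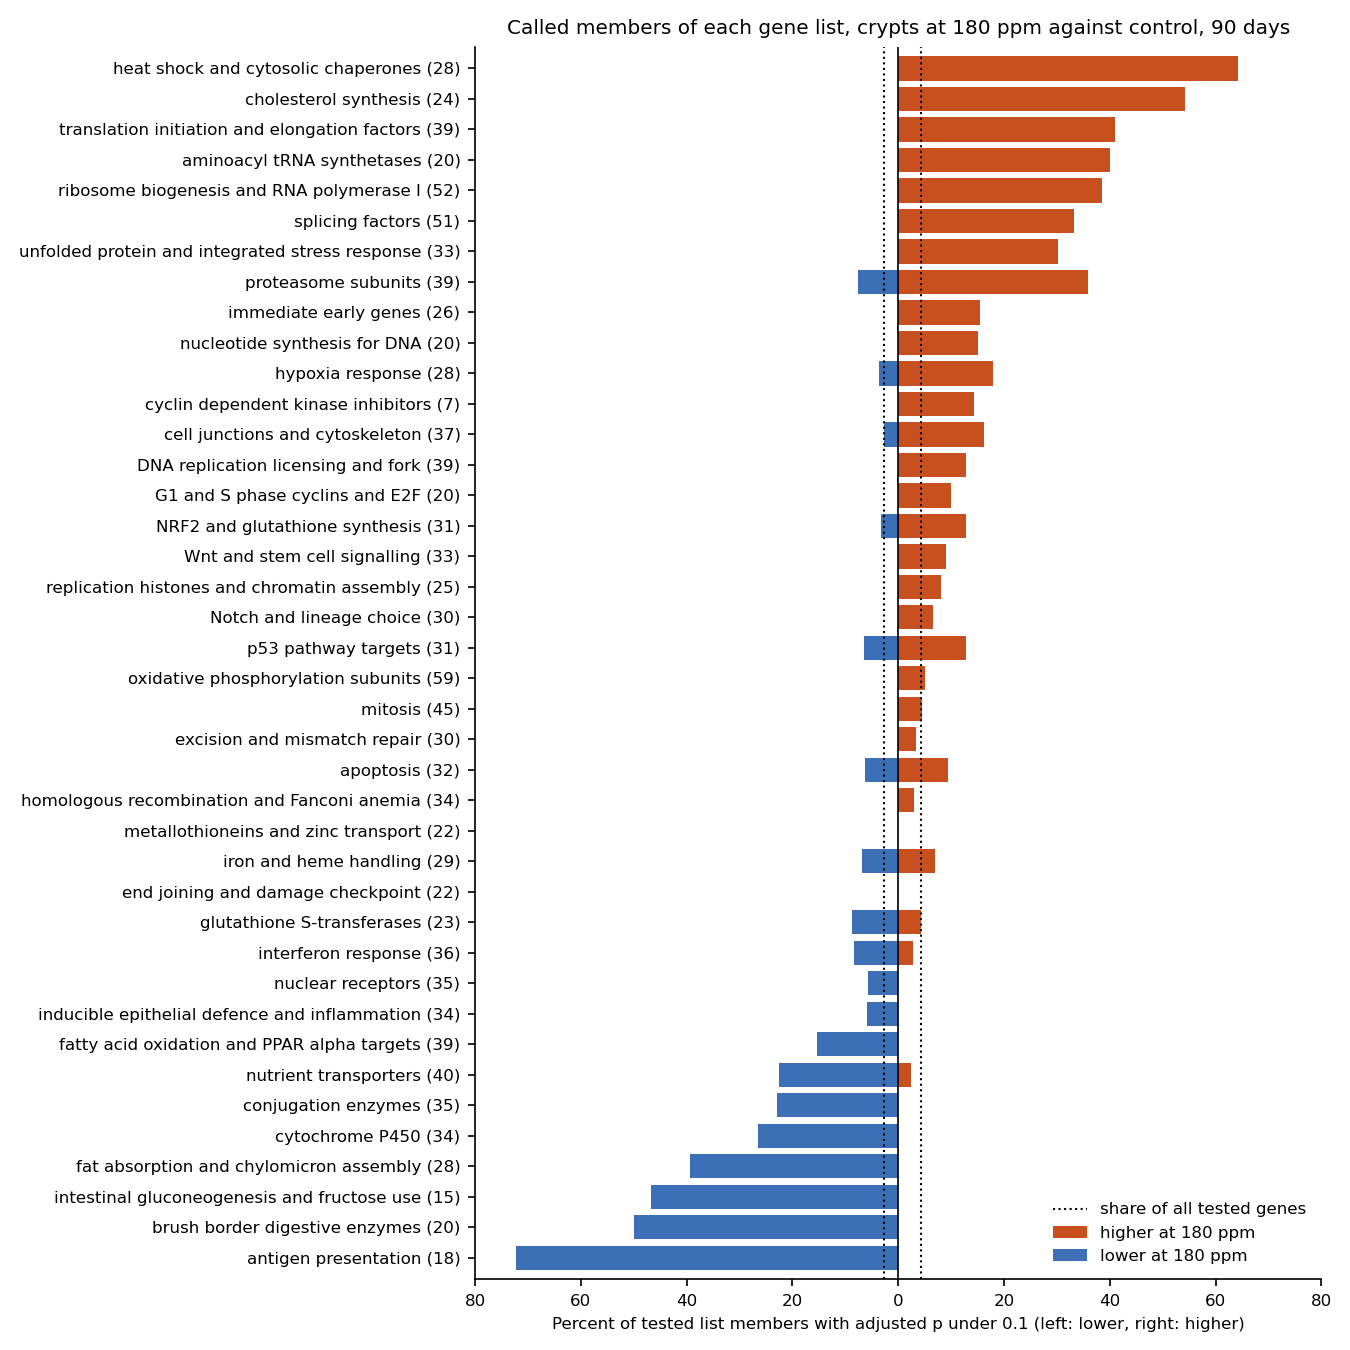
Share of the tested genes of each list that were called higher or lower in exposed crypts, in percent, with dotted lines at the share of all tested genes called in each direction (4.34% higher and 2.72% lower). Chaperones and cholesterol synthesis reach furthest among the lists that rose, and antigen presentation and brush border enzymes among those that fell. The number of genes tested stands after each name.

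Genes of cholesterol synthesis rose. The pathway builds sterol from acetyl units, and its genes share a sterol-sensing transcription factor, Srebf2. Of 24 genes tested 13 rose, 0 fell and 11 did not pass, against 4.34% of all genes that rose. The median log2 fold change was 1.16, and exposed and control libraries did not overlap for 12 of the 13, Fdps being the exception. Msmo1, a sterol oxidase late in the pathway, measured 43.6, 57.3, 79.1, 96.3 and 78.0 CPM in controls and 191, 238, 193, 213 and 273 CPM in exposed crypts (log2 fold change 1.63 ± 0.25, adjusted p = 8.53e-07). Idi1, which isomerizes the isoprene unit, measured 34.7, 38.5, 69.1, 69.5 and 64.9 CPM against 203, 301, 245, 125 and 247 CPM (log2 fold change 2.003 ± 0.32, adjusted p = 3.09e-06). Hmgcs1, of an early step, measured 24.5, 24.3, 28.5, 39.1 and 47.8 CPM against 116, 110.0, 59.1, 135 and 152 CPM (log2 fold change 1.79 ± 0.35, adjusted p = 2.10e-04). Mvk, Mvd, Fdps, Fdft1, Sqle, Lss and Cyp51, which follow in the pathway, rose by log2 fold changes of 1.20, 2.58, 1.51, 1.71, 1.29, 1.66 and 1.66, and Srebf2 itself by 1.18 (adjusted p = 2.34e-04). Without both exposed libraries with low villus markers 8 of the 13 were called, and leaving out any single library gave 13 or 14.

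Of these 13 genes 8 had a RefSeq promoter in the table used. All 8 held CCAAT or its reverse ATTGG within 250 bases before the start, and so did all 16 members of the list with a promoter, called or not, against 39.5% of all genes. The sterol element TCACNCCAC, searched on both strands, was found in 1 of the 8, against 1.26% of all genes, and each of the other 13 motifs in 0 or 1 of them. Msmo1 and Hmgcs1 are shown because each carries the pentamer 3 times, beginning 160, 96 and 55 bases before the start in Msmo1 (chr8:64733579-64733828, minus strand) and 237, 176 and 45 bases before it in Hmgcs1 (chr13:119690101-119690350, plus strand), with CCAAT or ATTGG in capitals.
Msmo1: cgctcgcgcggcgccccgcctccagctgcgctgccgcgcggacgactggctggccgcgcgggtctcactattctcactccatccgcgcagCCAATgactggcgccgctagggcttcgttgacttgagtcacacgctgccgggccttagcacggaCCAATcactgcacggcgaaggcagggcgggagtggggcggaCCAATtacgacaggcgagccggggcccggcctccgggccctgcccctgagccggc
Hmgcs1: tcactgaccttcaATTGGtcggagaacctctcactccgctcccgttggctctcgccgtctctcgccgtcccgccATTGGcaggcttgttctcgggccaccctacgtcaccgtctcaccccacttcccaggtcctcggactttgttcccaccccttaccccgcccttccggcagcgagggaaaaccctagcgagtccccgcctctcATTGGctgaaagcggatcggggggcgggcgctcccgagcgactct

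Many genes of protein folding, ribosome making and translation rose. Of 28 heat shock and cytosolic chaperone genes 18 rose and 0 fell, with a median log2 fold change of 0.98. Chaperones fold newly made and damaged proteins. Hspa4, a co-chaperone of the Hsp110 family, measured 397, 587, 494, 643 and 524 CPM in controls and 1143, 1165, 796, 1188 and 1246 CPM in exposed crypts (log2 fold change 1.07 ± 0.18, adjusted p = 8.14e-06). Hspa8, the constitutive Hsp70, measured 307, 611, 352, 600.1 and 403 CPM against 1175, 1562, 999, 940.4 and 1293 CPM (log2 fold change 1.39 ± 0.23, adjusted p = 1.11e-05). The stress-inducible Hspa1b behaved less evenly, at 27.4, 13.4, 5.93, 5.20 and 1.97 CPM in controls and 54.5, 15.8, 176, 7.19 and 42.8 CPM in exposed crypts. Mouse 485 was far above the other exposed mice, and mice 484 and 488 lay among or near the controls (log2 fold change 2.42 ± 0.52, adjusted p = 8.70e-04). Without mouse 485 neither Hspa1b (log2 fold change 1.43, adjusted p = 0.119) nor Hspa1a was called. Hspa1a and Hspa1b are near copies, and their counts are uncertain. Hsph1 (1.85), Dnaja1 (0.97) and the chaperonin subunits Cct4 (1.46) and Cct6a (1.11) also rose. With mice 484 and 485 left out 11 chaperone genes were called.

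Of 52 genes of ribosome biogenesis and RNA polymerase I 20 rose and 0 fell, and 48 of the 52 had a positive log2 fold change. Nop58 (1.37) and Nop2 (1.11), which modify ribosomal RNA, rose beside Ddx21. Under the other settings tried that count ran from 11, with the legacy form of the edgeR fit, to 28. Of 39 translation factors 16 rose and 0 fell. Eif6, which keeps ribosomal subunits apart, measured 346, 511, 451, 520.4 and 476 CPM in controls and 1107, 1027, 697, 886 and 1060.4 CPM in exposed crypts (log2 fold change 1.05 ± 0.19, adjusted p = 4.84e-05). Eif5a, Eif2s2, Eif3d and Eif5 rose by log2 fold changes of 1.08, 1.27, 1.17 and 1.34. Of 20 aminoacyl tRNA synthetases 8 rose, led by Tars (log2 fold change 2.16 ± 0.40, adjusted p = 9.57e-05), and of 51 splicing factors 17 rose, 0 of either list falling. Of 33 genes of the unfolded protein and integrated stress response 10 rose and 0 fell. Those that rose are chaperones and folding enzymes of the endoplasmic reticulum, such as Hspa5 (log2 fold change 0.79 ± 0.18, adjusted p = 0.00192), Dnajb11 (1.03), Manf (1.15), Calr (1.20) and Pdia6 (1.27). The transcription factors Atf4, Ddit3 and Xbp1 measured 141 ± 37.4 and 185 ± 33.7 CPM, 5.97 ± 5.74 and 3.84 ± 2.58 CPM and 162 ± 34.2 and 111 ± 33.1 CPM and did not pass, nor did Asns and Trib3, targets of Atf4 (-0.04 and -0.23). Another probe of Atf4 was called higher (log2 fold change 1.11, adjusted p = 0.00243). Of 59 subunits of oxidative phosphorylation 3 rose (5.08% against 4.34% of all genes) and 56 did not pass. With mice 484 and 485 left out, 16 genes of ribosome biogenesis, 14 translation factors, 6 synthetases, 6 splicing factors, 7 genes of the unfolded protein response and 2 of oxidative phosphorylation were called.

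Most genes of the cell cycle did not pass, and most of their fold changes were positive. Of 39 genes of DNA replication 5 rose (12.8% against 4.34% of all genes) and 0 fell, and 35 of the 39 had a positive log2 fold change (median 0.51). Of 45 mitosis genes 2 rose, 4.44% against 4.34% of all genes that rose, and 42 were positive (median 0.67). Plk1, a mitotic kinase, measured 31.5, 44.5, 30.6, 76.5 and 31.1 CPM in controls and 128, 204, 133, 76.8 and 144 CPM in exposed crypts, and the nearest pair of libraries all but touched (log2 fold change 1.65 ± 0.40, adjusted p = 0.00397). Ccnb1, the mitotic cyclin, measured 59.7, 93.3, 64.7, 106 and 74.4 CPM against 203, 251, 104, 152 and 199.97 CPM and overlapped (log2 fold change 1.18 ± 0.37, adjusted p = 0.0396). Mcm6, Orc6, Mcm10 and Cdc6, of origin licensing, and Pcna, the sliding clamp, rose by log2 fold changes of 0.82, 1.31, 2.005, 1.69 and 0.66. Mki67, the usual proliferation marker, measured 37.8 ± 13.6 and 62.9 ± 14.8 CPM and did not pass (adjusted p = 0.304), and Top2a measured 168 ± 37.3 and 264 ± 70.4 CPM (adjusted p = 0.456). Of 20 genes of nucleotide synthesis 3 rose (15.0%), of 25 of replication histones and chromatin assembly 2 (8.00%), of 30 of Notch signaling and lineage choice 2 (6.67%) and of 7 cyclin-dependent kinase inhibitors 1 (14.3%), and none of them fell. Of 20 cyclin and E2F genes Ccne1 (1.79) and E2f3 (1.21) rose (10%). Other probes of Pole and Rfc4 (replication), Knl1 (mitosis) and Cdk4 (cyclin and E2F list), which these counts leave out, were called higher. Their log2 fold changes were 1.72, 2.26, 1.62 and 1.24 (adjusted p = 0.0915, 0.0582, 0.0809 and 0.0612). Leaving out mice 484 and 485 gave calls for 2 genes of nucleotide synthesis, 1 histone or chromatin gene, 1 Notch gene, 1 cyclin gene and 0 kinase inhibitors. Over the settings tried the counts reached 20 in mitosis and 15 in replication and were as low as 1 and 2, as with mice 484 and 485 left out.

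Among 33 genes of Wnt and stem cell signaling, which keeps crypts dividing, 3 rose (9.09% against 4.34% of all genes) and 0 fell. Cd44, an adhesion receptor of progenitors, measured 62.3, 62.2, 60.2, 68.2 and 72.4 CPM in controls and 142, 251, 160.5, 184 and 147 CPM in exposed crypts (log2 fold change 1.44 ± 0.34, adjusted p = 0.00296), and Ctnnb1 and Lrp5 rose by 0.61 and 0.56. Axin2, a feedback target of the pathway, measured 248 ± 49.1 and 189.8 ± 40.7 CPM and did not pass (adjusted p = 0.534), Myc measured 44.4 ± 20.0 and 57.0 ± 17.7 CPM (adjusted p = 0.769), and Lgr5 was near the limit of reading at 3.57 ± 4.56 and 2.44 ± 2.27 CPM. The median of the list was -0.38, on the other side of 0 from its 3 calls, of which 2 were made with mice 484 and 485 left out.

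Some targets of p53, which halts or kills cells with damaged DNA, were called, and few genes of repair. Of 31 genes of p53 and its targets, Trp53 being counted among them, 4 rose and 2 fell (19.4% against 7.06% of all genes), and the median was -0.03. Cdkn1a, the p53-induced inhibitor of the cell cycle, measured 4.61, 14.7, 7.97, 15.4 and 9.83 CPM in controls and 20.7, 11, 26.2, 28.1 and 26.0 CPM in exposed crypts and overlapped (log2 fold change 1.06 ± 0.37, adjusted p = 0.0838). Trp53 itself went from 86.7 ± 18.9 to 141 ± 17.7 CPM (log2 fold change 0.70 ± 0.22, adjusted p = 0.0433), and Aen and Perp rose by 1.24 and 1.44. Another probe of Trp53 (log2 fold change -0.25) and both others of Aen (-0.26 and 0.09) did not pass. Mdm2, Bax and Ccng1, also targets, measured 19.5 ± 6.37 and 21.8 ± 9.81 CPM, 99.9 ± 16.4 and 96.3 ± 32.2 CPM and 108 ± 30.8 and 105 ± 26.6 CPM, with adjusted p of 0.906, 0.966 and 0.995. Ccng2 (-1.85) and Fas (-1.03) fell. None of these 4 rises was called with DESeq2 size factors in edgeR or without both exposed libraries with low villus markers (3 were with DESeq2), and 1 of the 2 falls was called without those libraries. Of 34 genes of homologous recombination and the Fanconi anemia pathway 1 rose (2.94% against 4.34% of all genes). Of 30 of excision and mismatch repair Tdg alone rose (3.33%, log2 fold change 1.01 ± 0.28, adjusted p = 0.0168). Of 22 of end joining and damage checkpoints 0 were called in edgeR and in DESeq2, with 1 at an unadjusted p under 0.05. Another probe of Xrcc5, of end joining, was called higher (log2 fold change 1.84, adjusted p = 0.0591). So was another probe of Rad51ap1, of homologous recombination (log2 fold change 2.06, adjusted p = 0.0607). Of 32 apoptosis genes 3 rose, Ripk3 (1.33), Mcl1 (1.08) and Xiap (0.59), and 2 fell, Casp6 (-0.92) and Fas (15.6% called against 7.06% of all genes). With mice 484 and 485 left out 1 of the 3 and 0 of the 2 were called.

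Of 31 genes of the Nrf2 response and glutathione synthesis, which answer oxidants, 4 rose and 1 fell (16.1% called against 7.06% of all genes). Gsr, glutathione reductase, measured 478, 740.0, 598, 715 and 584 CPM in controls and 1829, 1711, 1191, 1037 and 1651 CPM in exposed crypts (log2 fold change 1.25 ± 0.26, adjusted p = 4.39e-04). Gpx2, the glutathione peroxidase of gut epithelium, measured 76.6, 108, 110.3, 160.2 and 90.7 CPM against 443, 642, 294, 251.8 and 517 CPM (log2 fold change 1.97 ± 0.48, adjusted p = 0.00435). Gclc, which limits glutathione synthesis, and G6pdx, which supplies reducing power, rose by 1.05 and 1.04. Cat, catalase, fell from 374 ± 68.2 to 159.7 ± 64.0 CPM (log2 fold change -1.22 ± 0.26, adjusted p = 6.99e-04). Other Nrf2 targets did not pass or could not be read. Nqo1 measured 74.8 ± 15.4 and 78.0 ± 16.8 CPM (adjusted p = 0.969), Txnrd1 measured 319.7 ± 65.3 and 423 ± 66.7 CPM (adjusted p = 0.411), Srxn1 measured 25.6 ± 5.23 and 33.5 ± 12.5 CPM (adjusted p = 0.614), and Hmox1 had 0 counts in all 10 libraries. Of 23 glutathione S-transferases Gsta2 rose (1.10), a share near the 4.34% of all genes that rose. Gstt1 and Gstm4 fell (-1.17 and -1.17), against 2.72% of all genes that fell. Gsta2 was not called with DESeq2, with its size factors in edgeR, with the legacy fit or at an adjusted p under 0.05. When mice 484 and 485 were left out, 3 genes of the Nrf2 list and Gsta2 were called higher, and Cat, Gstt1 and Gstm4 were not called. Metallothioneins and zinc transporters gave 0 calls of 22 in edgeR and in DESeq2, with 3 higher and 2 lower at an unadjusted p under 0.05, and Mt1 and Mt2, the metal-induced metallothioneins, measured 14.1 ± 14.9 and 4.87 ± 3.66 CPM and 76.5 ± 112 and 35.2 ± 19.1 CPM (adjusted p = 0.283 and 0.371).

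Of 28 hypoxia genes 5 rose and 1 fell (21.4% called against 7.06% of all genes). Ero1l, an oxidase of the endoplasmic reticulum, measured 135, 316, 138, 255 and 256 CPM in controls and 721, 510.2, 392, 504 and 607 CPM in exposed crypts (log2 fold change 1.31 ± 0.23, adjusted p = 1.56e-05). The glycolytic genes Ldha, Aldoa, Hk2 and the glucose carrier Slc2a1 rose by 0.90, 0.79, 0.95 and 1.56 on the log2 scale, and Pfkfb4 fell by 1.38. Another probe of Ldha (log2 fold change -0.0027) and both others of Aldoa (0.0094 and -0.23) did not pass, while Hif1a, the hypoxia factor, passed by another probe alone (log2 fold change 1.10, adjusted p = 0.00421). Vegfa, Bnip3 and Egln3, classical targets of the hypoxia factor, measured 26.9 ± 10.7 and 19.7 ± 6.85 CPM, 9.02 ± 4.75 and 6.25 ± 3.50 CPM and 17.2 ± 3.77 and 13.6 ± 5.30 CPM and did not pass. Of 29 genes of iron and heme handling Tfrc, the transferrin receptor (log2 fold change 1.25 ± 0.43, adjusted p = 0.0775), and Pcbp1 (0.71) rose and Slc46a1 and Aco1 (-0.98) fell, Slc40a1, the iron exporter, being at 193 ± 61.4 and 107 ± 31.1 CPM (adjusted p = 0.438). In all, 13.8% of the iron and heme list was called, against 7.06% of all genes. With mice 484 and 485 left out, 2 hypoxia genes and no iron gene rose, and Pfkfb4 alone fell.

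Some genes of epithelial junctions, calcium-binding proteins and growth factors rose. Of 37 junction and cytoskeleton genes 6 rose and 1 fell. Cldn2, a pore-forming claudin of crypt tight junctions, measured 161, 130.2, 185, 196 and 162 CPM in controls and 507, 802, 779, 405 and 518 CPM in exposed crypts (log2 fold change 1.85 ± 0.43, adjusted p = 0.00259). Krt8, a keratin of simple epithelium, measured 2155, 2029, 2664, 2624 and 1804 CPM against 4233, 6012, 5315, 3671 and 5641 CPM (log2 fold change 1.141 ± 0.22, adjusted p = 1.88e-04), its partner Krt18 rose by 1.24 and Dsg2 and Jup, of desmosomes, by 0.83 and 0.86. Myo1a, a brush border myosin, fell (-0.94). Of these 7, all but 1 of those that rose were called with mice 484 and 485 left out. Lists of the S100 family, annexins and growth factors were looked up after their leading members had been seen. Of 13 S100 genes 6 rose, S100a14, S100a6, S100a5, S100a16, S100a11 and S100a10. S100a6 (chr3:90612882-90624181, plus strand) measured 25.2, 42.8, 24.3, 52.2 and 40.0 CPM in controls and 222, 295, 248, 155 and 132 CPM in exposed crypts (log2 fold change 2.50 ± 0.34, adjusted p = 6.50e-08). S100a16 (chr3:90537254-90543151, plus strand) lies in the same cluster of chromosome 3 and measured 14.8, 25.6, 21.3, 19.6 and 15.4 CPM against 65.3, 81.4, 34.5, 35.8 and 42.0 CPM (log2 fold change 1.38 ± 0.39, adjusted p = 0.0183). Of 12 annexins 4 rose. Anxa13, of intestinal epithelium, measured 856, 1152, 1019.7, 874 and 1042 CPM against 3580.4, 2657, 2081, 2181 and 2769 CPM (log2 fold change 1.42 ± 0.31, adjusted p = 8.98e-04), and Anxa2 rose by 0.85. Anxa10, known from gastric epithelium, had 0 counts in all control libraries and 12.6, 19.7, 10.96, 4.02 and 0 CPM in exposed crypts, at least 63.6-fold higher over the floor of 3 counts, with mouse 490 also at 0 (edgeR adjusted p = 0.0013).

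Of 13 genes of the epidermal growth factor family and its feedback 5 rose and 1 fell, against 4.34% and 2.72% of all genes. Nrg1, a ligand of ErbB receptors, measured 5.82, 0, 4.45, 7.51 and 5.90 CPM in controls and 42.3, 45.8, 21.4, 57.8 and 25.6 CPM in exposed crypts, and all 3 of its probes were called (log2 fold change 2.85 ± 0.52, adjusted p = 5.87e-05). Ereg, epiregulin, measured 3.15, 2.46, 3.89, 3.66 and 0 CPM against 9.09, 19.3, 21.9, 9.73 and 8.67 CPM (log2 fold change 2.08 ± 0.58, adjusted p = 0.0163). Areg, amphiregulin, measured 0, 3.55, 6.67, 4.62 and 2.95 CPM against 25.4, 17.2, 4.67, 30.5 and 47.6 CPM, mouse 485 lying within the controls (log2 fold change 2.57 ± 0.63, adjusted p = 0.0045). Hbegf rose by 1.91 (adjusted p = 0.0799) and Errfi1, a feedback inhibitor, by 2.05 (adjusted p = 2.26e-04), whereas Erbb3, the receptor, fell by 0.87 (adjusted p = 0.00757). Of 26 immediate early genes Fosl1 (3.63), Ier2 (0.67), Maff (2.16) and Dusp6 (1.13) rose (15.4% against 4.34% of all genes). Of 34 genes of inducible defense and inflammation 2 fell (5.88% against 2.72% of all genes) and 0 rose. The 2 were Reg3a (-3.10) and Reg1 (-2.13), whose family members have similar sequences. With mice 484 and 485 left out 3 of the S100 genes, 3 of the annexins, 3 of the growth factor genes and 4 of the immediate early genes were called higher, and both Reg genes lower, while Erbb3 was not called.

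The crypts at 60 ppm share those controls with the comparison above, and were set against the crypts at 180 ppm directly. Between 180 and 60 ppm 179 genes (0.941% of those tested) differed, 12 higher and 167 lower at 180 ppm. The share that was higher was 6.70% with TMM scaling, 34.2% with DESeq2 size factors (13 higher and 25 lower, the median of all genes moving by 0.11) and 44.9% with DESeq2 (189 higher and 235 lower). The count rests on single libraries. It was 1 without exposed mouse 485, 5 without mouse 402 and 8 without mouse 403 of the 60 ppm group, and between 26 and 82 when any other library of these groups was left out. Of the 24 leading genes, Tymp and Btnl2 differed between the concentrations. Tymp measured 165 ± 65.6 CPM in controls, 61.2 ± 20.0 CPM at 60 ppm and 19.3 ± 13.8 CPM at 180 ppm (log2 fold change -1.65 ± 0.39, adjusted p = 0.0327 for 180 against 60 ppm). Btnl2 measured 273 ± 91.4, 152 ± 39.6 and 77.1 ± 29.2 CPM in that order (log2 fold change -0.98 ± 0.24, adjusted p = 0.0477). Pck1 was at 268 ± 98.2 CPM in controls, 95.6 ± 34.8 CPM at 0.1 ppm, 27.3 ± 16.7 CPM at 20 ppm and 7.59 ± 2.02 CPM at 60 ppm, beside 7.68 ± 3.66 CPM at 180 ppm. S100a14 was at 7.12 ± 5.77 CPM in controls, 17.4 ± 6.59 CPM at 20 ppm, 88.7 ± 17.2 CPM at 60 ppm and 112 ± 26.6 CPM at 180 ppm, and the last pair did not pass (log2 fold change 0.33 ± 0.38, adjusted p = 0.878). Mcpt1 stood at 23.7 ± 15.2 CPM at 20 ppm and 159 ± 109 CPM at 60 ppm (log2 fold change 0.45 ± 0.51, adjusted p = 0.876 for 180 against 60 ppm). Gzma stood at 41.3 ± 14.4 CPM and 33.3 ± 9.67 CPM at these concentrations (log2 fold change -0.73 ± 0.40, adjusted p = 0.649). Of the genes lower at 180 ppm than at 60 ppm several are absorptive, among them Apoa1 (log2 fold change -1.37 ± 0.38, adjusted p = 0.0818) and Mep1b (log2 fold change -1.32 ± 0.25, adjusted p = 0.00349). Hspa1b was higher at 180 ppm (log2 fold change 2.67 ± 0.53, adjusted p = 0.00653), but not called without mouse 485 (log2 fold change 1.74, adjusted p = 0.631). The villus enterocyte markers summed to 36687 to 74656 CPM at 60 ppm and to 13615 to 37885 CPM at 180 ppm, and their part in these differences was not tested.

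**Figure D5:**
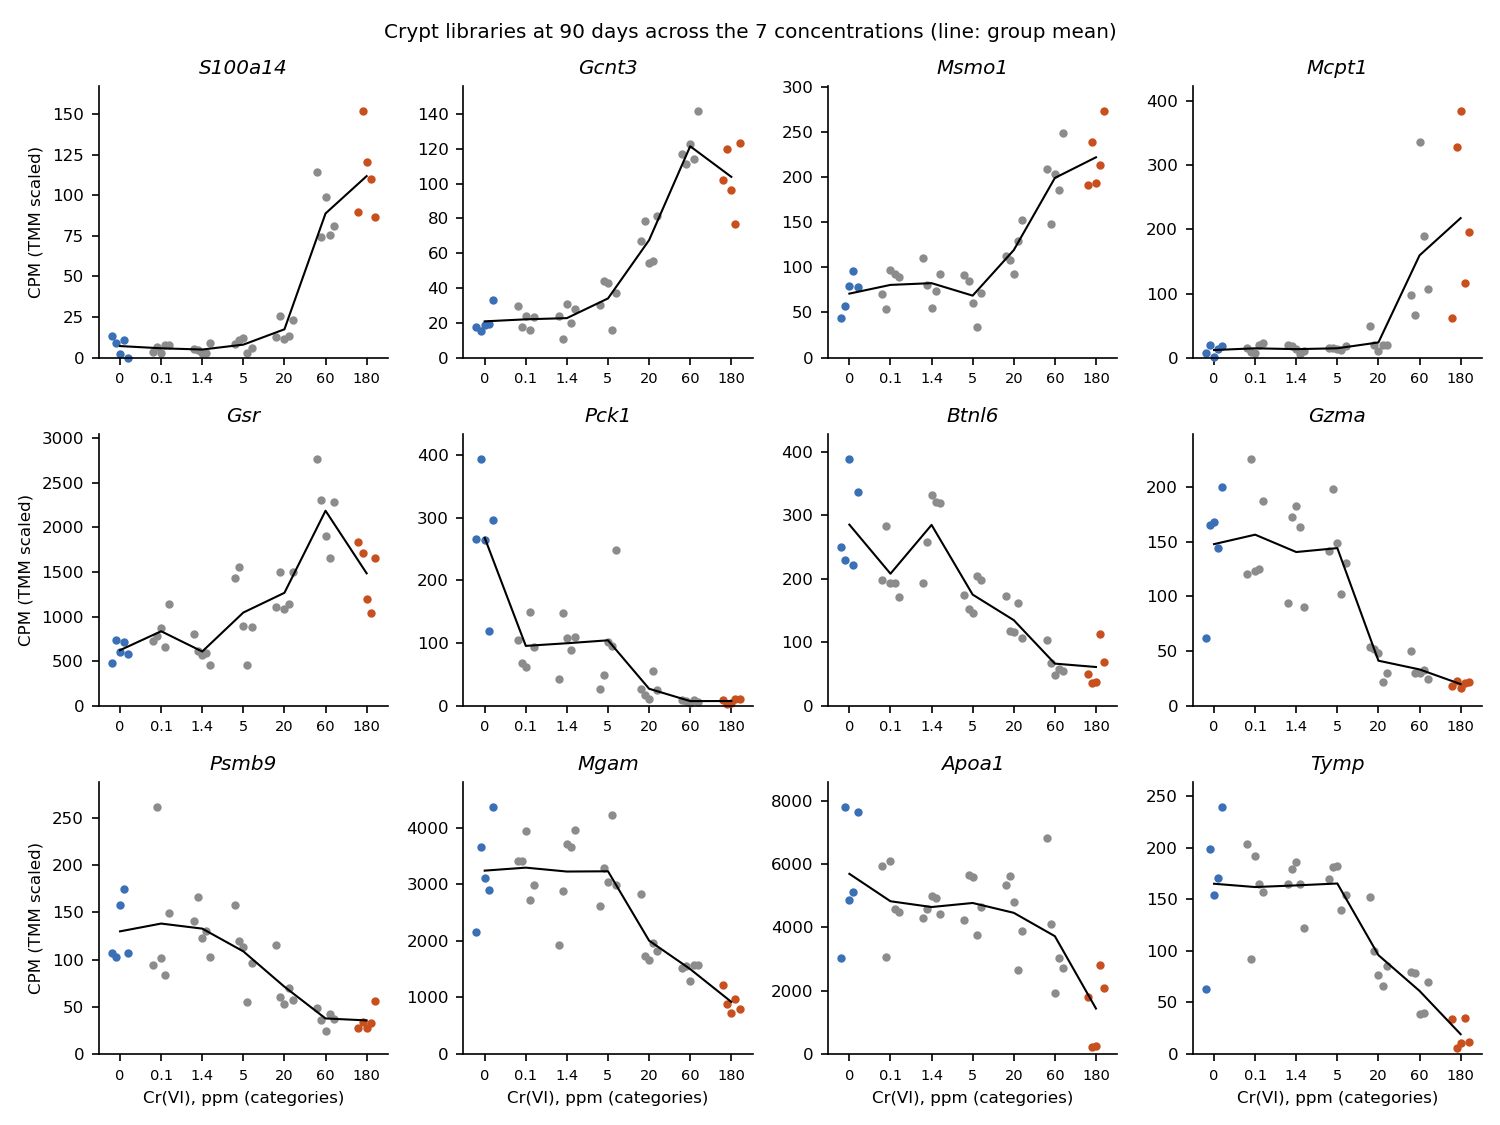
CPM of 12 genes in every crypt library at 90 days across 7 concentrations of Cr(VI) in ppm, drawn as categories, with 1 point a mouse and a line through the group means. Controls are blue, 180 ppm is red and the concentrations between are gray. S100a14 is high at 60 and 180 ppm, Gzma is low from 20 ppm on, and the mean of Pck1 is lower at 0.1 ppm than in controls.

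The change of the 180 ppm effect in crypts with time was tested as a difference of effects, each against the controls of its own time. In all, 29 genes (0.152%) had effects that differed between 7 and 90 days, 26 of them with the effect higher at 90 days (89.7%). DESeq2 size factors, which moved the median of all genes by -0.15, gave 6 of 9 and DESeq2 37 of 46 (66.7% and 80.4%). Of the 24 leading genes Bhlhe40 was the 1 that differed (difference of log2 fold changes 1.69 ± 0.36, adjusted p = 0.0235), at 94.8 ± 22.0 CPM in controls and 92.9 ± 24.2 CPM in exposed crypts at 7 days. The group means of all 12 leading genes that fell and of 11 of the 12 that rose moved the same way at 7 days. Leaving out any 1 library gave 7 to 32 genes, the lowest without control mouse 7. Of the 18 chaperone genes that rose at 90 days 5 had effects that differed from those at 7 days, and 11 of the 18 had a higher mean in exposed crypts at 7 days. Hspa8 measured 556 ± 96.8 CPM in controls and 387 ± 88.7 CPM in exposed crypts at 7 days, against 455 ± 142 and 1194 ± 248.9 CPM at 90 days (difference of log2 fold changes 1.92 ± 0.33, adjusted p = 5.87e-04). Hspa1b measured 15.7 ± 9.66 and 2.58 ± 2.23 CPM at 7 days (difference of log2 fold changes 4.81 ± 0.87, adjusted p = 0.00112, and difference 3.79, adjusted p = 0.0451 without mouse 485). Dnaja1 measured 176 ± 71.7 and 128 ± 42.1 CPM (difference of log2 fold changes 1.43 ± 0.31, adjusted p = 0.0235). By contrast none of the 7 T cell, 13 antigen presentation, 13 cholesterol and 10 brush border genes called at 90 days differed between the times at an adjusted p under 0.1, which does not show that their effects were equal. T cell markers summed to 259.5 to 767 CPM in controls and 17.2 to 103 CPM in exposed crypts at 7 days.

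In villi of the same study at 90 days, the effect of 180 ppm differed from that in crypts for 56 genes (0.294%), 5 of them with a higher effect in crypts and 51 with a lower one, and DESeq2 size factors, which moved the median of all genes by 0.12, gave 7 and 32. The median difference over all probes was -0.17 as reported. Total counts ran from 1667014 to 2678299 in control villi and from 3030885 to 4574064 in exposed villi, without overlap. A depth covariate gave 6 higher and 36 lower, and thinned counts gave 4 and 51. Crypt and villus came from the same animal in 9 mice, and with the mouse as a block 196 genes differed, 54 of the 56 among them. Without the villus control of mouse 7 the count was 155, and without any other library 28 to 53. No leading gene was among the 56. S100a14 measured 4.21 ± 5.61 CPM in control villi (n = 4) and 180.2 ± 134 CPM in exposed villi, and the difference of its effects did not pass (difference of log2 fold changes -1.26 ± 0.82, adjusted p = 0.743). T cell markers summed to 555 to 866 CPM in control villi and 105 to 239 CPM in exposed villi, again without overlap. Among the 51 were genes of stroma and macrophages. Pdgfra, a receptor of fibroblasts, measured 68.2 ± 25.7 and 66.4 ± 10.6 CPM in control and exposed crypts and 25.5 ± 11.9 and 164 ± 48.8 CPM in villi (difference of log2 fold changes -2.71 ± 0.44, adjusted p = 1.30e-04). Mpeg1, of macrophages, measured 248.6 ± 56.3 and 190.5 ± 47.3 CPM in crypts and 275 ± 41.4 and 798 ± 168 CPM in villi (difference of log2 fold changes -1.92 ± 0.31, adjusted p = 1.30e-04). Macrophage and dendritic cell markers summed to 129 to 159 and 106 to 122 CPM in control and exposed crypts and to 133 to 266 and 202 to 389 CPM in villi, so the sums did not overlap in crypts, where exposed libraries were lower, and overlapped in villi, and their part in the result was not tested.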

How the data were processed

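RNA of crypt and villus scrapings was measured by TempO-Seq, 1 library a mouse and compartment. The deposited values are whole-number counts per probe, which the authors made with bcl2fastq 2.17.1.14 and Bowtie (version not given in the sources used here) per the labels' processing notes, without normalization. The panel holds 30146 probes for 21450 genes, 0 columns were left unmapped and 0 rows name no gene. The genome build of the files and the place of each probe in its transcript are not given in the sources used here. Gene spans were taken from the GENCODE annotation of GRCm38 and promoters from RefSeq (GRCm38.p6). Libraries of 28 groups were fitted together with the edgeR 4.0.16 quasi-likelihood test (R 4.3.3, TMM scaling, filterByExpr, prior count 2), which kept 26365 probes of 19020 genes. Probes were called at a Benjamini-Hochberg adjusted p under 0.1 over all probes of a contrast, genes were counted once, and the probe with the highest total count stands for a gene. Contrasts were 180 ppm against control and against 60 ppm in crypts at 90 days, and the change of the 180 ppm effect with time and compartment. Differences of total counts were tested with an exact permutation test (scipy 1.17.1). A fold against a group at 0 used 3 counts over the group as the floor. Intervals were not formed for counts, and floors cover counting error only.

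The text names the 12 genes with the smallest p in each direction whose exposed and control libraries did not overlap, the first 2 genes and the 4 with the smallest p of each list, and the 5 with the smallest p in each direction of the other contrasts. A few genes that this rule picks are not reported here. Further list members, and the lists of mast cell, S100, butyrophilin-like, annexin, growth factor and alarmin genes, were chosen after their values were seen. Members and lists were chosen with earlier results of these data known. Replicate mice are separate animals, and of 20 replicate pairs none held identical counts (chi-square per degree of freedom 16.7 to 126). In counts simulated for 26365 probes of the comparison of 180 ppm with control at 90 days, 11 of 100 probes changed 2-fold and 84 of 100 changed 4-fold were recovered, with 9 unchanged probes called. The simulation gave all probes 1 dispersion of 0.2 and changed 200 probes, none of low mean count. Its shares need not hold for the real comparison, in which more probes were called and single libraries stood apart. Crypt and villus libraries with the same number come from the same mouse. Over 3930 probes, the deviations of 9 such pairs from their group means correlated at -0.48 to 0.78, 8 of them above 0.1. In 5 of the 9 pairs the villus library correlated best with the crypt library of its own mouse. The villus libraries of control mouse 3 and exposed mice 483, 484 and 485 correlated better with the crypt library of another mouse of their group. Alternatives were DESeq2 1.42.0, its size factors in edgeR, no filter on low counts, a mean count of at least 10, the legacy fit, a depth covariate, thinned counts, probes summed by gene, fits on fewer groups, a threshold of 0.05, a mouse block, and each library left out.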

Additional observations from a re-analysis of the deposited data

Results flagged for a closer look

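Genes named above by the naming rule or from the lists chosen later, the marker sums and the depth quantities were screened. The further list members named above were not. In 31 of 393 groups of 5 libraries tested, 1 library lay far from the others, where chance gives about 1 in 20. The gap of that library to its nearest neighbor is given as a share of the whole range of the group, the mark for 5 libraries being 0.71. In control crypts mouse 3 stood apart for Cat (0.799), H2-K1 (0.766), Mcpt2 (0.904), Rbm3 (0.854), Reg3a (0.762) and Slc5a1 (0.753). Mouse 5 stood apart for the sum of goblet cell markers (0.843), the sum of pancreatic acinar cell markers (0.853), Hspa1a (0.795), Il1rl1 (1), Lgr5 (0.743) and Mt2 (0.902). Mouse 6 stood apart for Khk (0.768) and Slc9a3 (0.773). Mouse 7 stood apart for S100a10 (0.727). Mouse 8 stood apart for Cyp3a25 (0.819), Gcnt3 (0.766) and Pcna (0.795). In crypts at 180 ppm mouse 483 stood apart for Ghrl (0.717). Mouse 484 stood apart for Casp6 (0.723). Mouse 485 stood apart for Ctnnb1 (0.742), Hspa1a (0.741), Hspa1b (0.719), Hspa4 (0.772) and Xbp1 (0.741). Mouse 488 stood apart for the sum of smooth muscle and fibroblast markers (0.73), Ldha (0.743), Mcm10 (0.831) and Trpm5 (0.711). Mouse 490 stood apart for Dusp6 (0.758) and Psmb9 (0.765). Among the genes screened, a test of the difference itself passed for those below. The log2 fold change at 180 ppm was higher at 90 than at 7 days by 1.69 for Bhlhe40 (edgeR adjusted p = 0.0235), 1.43 for Dnaja1 (edgeR adjusted p = 0.0235), 1.11 for Eif6 (edgeR adjusted p = 0.0714), 2.54 for Errfi1 (edgeR adjusted p = 0.0357), 1.67 for Fcgbp (edgeR adjusted p = 0.0532), 4.78 for Hspa1a (edgeR adjusted p = 0.0532), 4.81 for Hspa1b (edgeR adjusted p = 0.00112), 1.92 for Hspa8 (edgeR adjusted p = 5.87e-04) and 5.20 for Il1rl1 (edgeR adjusted p = 0.0914). Without exposed mouse 485 the difference for Hspa1a was 3.74 (edgeR adjusted p = 0.324). It was lower in crypts than in villi, with a difference of -2.52 for Igfbp3 (edgeR adjusted p = 1.53e-04), -1.92 for Mpeg1 (edgeR adjusted p = 1.30e-04), -2.71 for Pdgfra (edgeR adjusted p = 1.30e-04) and -1.88 for Tyrobp (edgeR adjusted p = 0.00217).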

How the results depend on the processing

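For 180 ppm against control, the count of called genes was 1489 as reported and 1440 with DESeq2, 1483 with DESeq2 size factors, 1339 with no filter, 1865 with a mean count of at least 10, 849 with the legacy fit, 1283 with a depth covariate, 1264 with thinned counts, 1517 with probes summed by gene, 2558 with only the contrast's groups, 4197 with only the groups of its compartments and times and 1059 at an adjusted p under 0.05, and 1025 to 1493 with each library left out. For 180 against 60 ppm, the count of called genes was 179 as reported and 421 with DESeq2, 38 with DESeq2 size factors, 39 with no filter, 170 with a mean count of at least 10, 43 with the legacy fit, 151 with a depth covariate, 24 with thinned counts, 40 with probes summed by gene, 2426 with only the contrast's groups, 1917 with only the groups of its compartments and times and 47 at an adjusted p under 0.05, and 1 to 82 with each library left out, each of which moved the count by over 1.5 times. For the effect of time, the count of called genes was 29 as reported and 46 with DESeq2, 9 with DESeq2 size factors, 17 with no filter, 27 with a mean count of at least 10, 22 with the legacy fit, 13 with a depth covariate, 19 with thinned counts, 24 with probes summed by gene, 12 with only the contrast's groups, 35 with only the groups of its compartments and times and 12 at an adjusted p under 0.05, and 7 to 32 with each library left out. For crypt against villus, the count of called genes was 56 as reported and 196 with DESeq2, 39 with DESeq2 size factors, 55 with no filter, 71 with a mean count of at least 10, 64 with the legacy fit, 42 with a depth covariate, 55 with thinned counts, 67 with probes summed by gene, 33 with only the contrast's groups, 222 with only the groups of its compartments and times and 34 at an adjusted p under 0.05, and 28 to 155 with each library left out. The count for time fell by over 1.5 times in controls of 7 days (10 without mouse 46, 14 without mouse 47, 19 without mouse 48 and 10 without mouse 49), exposed crypts of 7 days (11 without mouse 527, 16 without mouse 528, 12 without mouse 529 and 14 without mouse 530), controls of 90 days (10 without mouse 3, 11 without mouse 6, 7 without mouse 7 and 11 without mouse 8) and exposed crypts of 90 days (15 without mouse 483, 14 without mouse 488 and 10 without mouse 490). That for compartment moved as much in control crypts (32 without mouse 5 and 35 without mouse 7), exposed crypts (35 without mouse 483, 34 without mouse 484, 29 without mouse 485 and 33 without mouse 490), control villi (34 without mouse 5 and 155 without mouse 7) and exposed villi (28 without mouse 485 and 31 without mouse 490). With the mouse as a block, which pairs crypt and villus of 1 animal, 196 genes differed between compartments, and no other contrast holds paired libraries. Without both 180 ppm libraries of mice 484 and 485, an alternative chosen after seeing the data, 823 genes were called at 180 ppm against control. The share of called genes that were higher was 46.9% with DESeq2 and 45.4% with its size factors, against 59.8%. Differences of total counts and of probes detected between the groups kept their direction and their side of the threshold with each library left out. Of the 205 genes named above that were called, 10 to 36 lost the call when 1 library was left out (most without exposed mouse 484), 70 without mice 484 and 485, and 0 changed sign. The log2 fold changes of 23 genes that were not called changed sign under some setting. With each library left out they ran from -0.15 to 0.11 for Alpi, -0.23 to 0.20 for Asns, -0.26 to 0.077 for Bax, -0.15 to 0.11 for Ccng1, -0.73 to 0.16 for Ddit3, -0.69 to 0.16 for Kit, -0.92 to 0.51 for Lgr5, -0.015 to 0.38 for Mdm2, -1.36 to 0.43 for Mt2 and -0.16 to 0.55 for Neurod1, and from -0.75 to 0.99 for Neurog3, -0.036 to 0.17 for Nqo1, -0.21 to 0.27 for Pck2, -0.22 to 0.15 for Pdgfra, -0.054 to 0.33 for Psmb5, -0.23 to 0.072 for Psmb6, -0.48 to 0.17 for Psmb8, -0.015 to 0.25 for Slc39a9, -0.79 to 0.030 for Trib3 and -0.49 to 0.12 for Trpm5. Without mice 484 and 485 the value was 0.11 for Cyp1a1, 0.14 for Fabp2, -0.41 for Mcpt4, -0.64 for Neurog3, -0.072 for Psmb5, 0.28 for Psmb8, 0.096 for Trib3 and 0.28 for Trpm5. With thinned counts the value was 0.21 for Lgr5 and 0.096 for Psmb8. With DESeq2 the value was -0.0052 for Mdm2, -0.088 for Nqo1 and -0.010 for Psmb5. With its size factors the value was -0.0047 for Mdm2, -0.083 for Nqo1 and -0.022 for Psmb5. With the depth covariate the value was -0.032 for Nqo1 and 0.035 for Psmb8. With only the 2 groups the value was -0.0045 for Nqo1. With summed probes the value was 0.024 for Pdgfra. The causes of these changes were not tested. Depth limits what could be seen, since genes under about 10 CPM rest on few counts in the smaller libraries.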

Other observations

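Some genes passed the test between 180 and 60 ppm but not between 180 ppm and control. Sat1, which starts the breakdown of polyamines, measured 138 ± 20.6 CPM in control crypts, 304 ± 29.1 CPM at 60 ppm and 160.3 ± 37.7 CPM at 180 ppm at 90 days (log2 fold change -0.92 ± 0.20, adjusted p = 0.0179 in edgeR for 180 against 60 ppm, adjusted p = 0.663 for 180 ppm against control). Slc39a9, a zinc transporter, measured 180.0 ± 54.9, 429 ± 78.9 and 199 ± 36.1 CPM in the same order (log2 fold change -1.10 ± 0.21, adjusted p = 0.00494 in edgeR for 180 against 60 ppm, adjusted p = 0.812 against control). Rbm3, an RNA-binding protein induced by cold, ran the other way at 315 ± 159, 198 ± 16.6 and 435 ± 107 CPM (log2 fold change 1.13 ± 0.27, adjusted p = 0.0396 in edgeR for 180 against 60 ppm, adjusted p = 0.415 against control).

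Igfbp3, which binds insulin-like growth factors, fell in crypts at 180 ppm from 187 ± 59.5 to 49.1 ± 25.0 CPM (log2 fold change -1.92 ± 0.29, adjusted p = 6.77e-07 in edgeR), while villi measured 126 ± 66.5 CPM in controls (n = 4) and 192 ± 32.5 CPM at 180 ppm, and the effects differed (difference of log2 fold changes -2.52 ± 0.42, adjusted p = 1.53e-04 in edgeR). Tyrobp, an adaptor of myeloid and natural killer cell receptors, went from 155 ± 41.7 to 87.3 ± 22.1 CPM in crypts (log2 fold change -0.82 ± 0.24, adjusted p = 0.0237 in edgeR) and measured 155 ± 21.5 and 323 ± 125 CPM in villi, and its effects differed as well (difference of log2 fold changes -1.88 ± 0.35, adjusted p = 0.00217 in edgeR).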
